A study of Mus musculus with 24 samples.

Results

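The 48 genes of the TGF-beta, BMP and activin family described here were chosen by symbol from 16118 genes. All were measured in the inguinal fat pad (white adipose tissue under the skin of the groin) of young mice. The symbols taken were those of the TGF-beta ligands, the Bmp, Gdf and Inhb ligands, the Acvr, Bmpr and Tgfbr receptors, the Smads, and Id1 to Id4. They comprised 3 TGF-beta ligands, 15 BMP or GDF ligands, 2 activin subunits, 7 type I receptors, 4 type II receptors, 2 co-receptors, 5 receptor-activated Smads, 1 common Smad, 2 inhibitory Smads and 4 Id genes. A further 3 genes entered by name and have other roles: Bmp1, a procollagen-cleaving metalloprotease, Bmp2k, a kinase, and Tgfbrap1, a receptor-associated protein.

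Poly(A) RNA of 24 mice was sequenced, 1 library per mouse, in 6 groups of 4. Males and females were taken at postnatal day 21 (p21), or at day 28 (p28). By then the mother had been removed at day 21 in the standard weaning groups (SW), while mice with delayed weaning (DW) still lived with her. No strain, genotype or agent is named for any group in the sources used here, and nothing there says which mice were litter mates. The series addresses how this depot changes in each sex when breastfeeding lasts longer.

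Ligands of this family are secreted dimers that bring type II and type I receptor kinases together. The type I kinase then phosphorylates receptor-activated Smads: Smad2 and Smad3 for TGF-beta and activin, and Smad1, Smad5 and Smad9 for BMPs. These join Smad4 and act on genes such as the Id genes, while Smad6 and Smad7 limit the signal. In fat, BMPs are known for committing precursor cells to the adipocyte lineage, TGF-beta for restraining adipogenesis and promoting matrix, and the activin receptor Acvr1c for restraining lipolysis.

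Values are the authors' normalised signal per gene, which is not a number of reads. A single read counted as 0.00358 (SW male 85) to 0.0154 (p21 male 53), so a value below 1 can rest on many reads. In SW females, for example, Gdf6 had at least 42 reads per animal. Tests were made with limma on log2(value + 1) over all 16005 genes that passed a filter on low reads, which all 48 family genes did. Genes are termed called where p, adjusted by Benjamini and Hochberg over all these genes, was below 0.05, and "rose" or "fell" is written only of called genes. Changes are differences on the log2(value + 1) scale, which understates the change of low genes. Libraries held 57600711 to 302145813 reads in the listed genes. The p21 male 53 and the SW male 84 had 14054 and 15497 genes with a read, against at least 15859 in every other library. DW females 82 and 83 stood apart from DW females 76 and 77. The rank correlation across genes between a library's deviation from the mean and the GC content of the transcripts was 0.42 and 0.30 in animals 76 and 77, and -0.42 and -0.58 in animals 82 and 83; it was -0.53 in p21 male 37 and 0.50 in SW female 81. Every result was therefore also computed without each of these pairs of animals and on values corrected for GC content.

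The adipocyte markers Adipoq, Plin1, Cidec, Lipe, Pnpla2 and Lep had reads in all groups, with a mean log2(value + 1) of 8.95 to 9.97 per animal. Against p21, 2 of these 6 rose and 1 fell in SW males, 2 rose in DW males, and none was called in females. After DW, 1 was lower in females than in males. Of 6 adipose progenitor markers, 1 rose and 1 fell in SW males, and 1 fell in SW females. In DW males and in DW females 2 rose and 1 fell. Other cell types also differed between the groups. The level of 7 mammary epithelial markers was between 0.06 and 2.38 in males. Among females it was between 2.08 and 3.77 at p21, 4.68 and 5.19 after SW, and 3.41 and 4.40 after DW. The level of 7 skeletal muscle markers was 0.30 to 5.09 in p21 males and 4.24 to 9.09 in p28 males, and in the males 6 of 7 rose from p21 to each p28 group. Of 5 macrophage markers, 3 rose in SW males, 5 in DW males, 4 in SW females and 4 in DW females against p21. Of 4 erythroid markers 3, 3, 2 and 4 fell in the same order, and of 6 endothelial markers 2, 4, 1 and 1 rose. Of 5 proliferation markers, 3 were higher in DW than in SW males and 5 in DW than in SW females. In such whole-tissue samples fewer cells of a type and less RNA per cell cannot be told apart.

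Compared per kilobase of exon, the most abundant family genes in this depot were receptors. Tgfbr2, the TGF-beta type II receptor, had a normalised value of 24.0 per kb, and Tgfbr3, the co-receptor betaglycan, 19.3. Smad5 at 11.9, Acvr1c at 11.1 and Id1 at 10.7 followed. Of the ligands, Tgfb1 was highest at 6.84 per kb, ahead of Tgfb3 at 5.40, Gdf11 at 4.44 and Inhbb at 4.40. The group means of Tgfb1 (5.70 to 7.75), Tgfb3 (4.17 to 7.27) and Inhbb (1.66 to 8.36) covered each other. The median family gene was at 3.96 per kb and the median of all genes at 3.10. In every animal 23 of the 48 genes had a value above 10, and 7 were below 1: Gdf6, Gdf15, Bmp8a, Bmp8b, Bmp15, Bmpr1b and Tgfbr3l. Reads were found in every library for 41 genes.

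**Figure D1:**
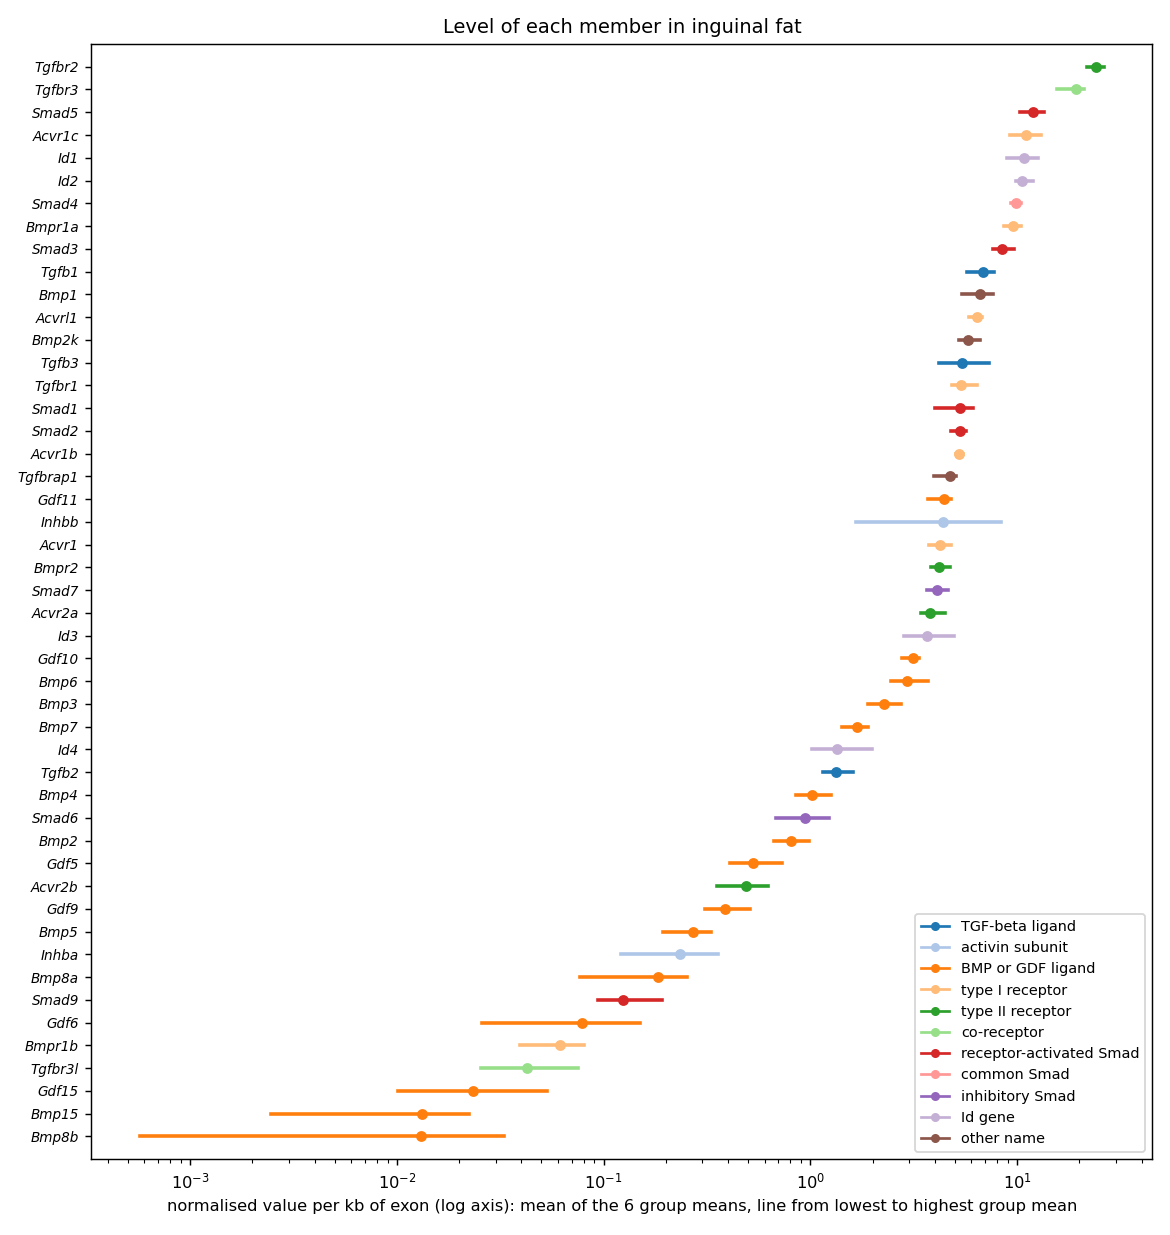
Level of the 48 family genes, as the mean of the 6 group means in normalised value per kb of exon on a log axis, with a line from the lowest to the highest group mean and colours for roles. Tgfbr2 (24.0) and Tgfbr3 (19.3) are highest, and Inhbb has the widest line (1.66 to 8.36) among genes above 1 per kb.

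Most family genes were not called in any comparison. Of 48, 10 passed the test in at least 1 of 11 comparisons, giving 16 calls, and 38 passed in none. From p21 to p28, 2 of 48 rose in SW males (4.17%), where 11.9% of all genes were called and 6.9% rose. In SW females 6 rose and 1 fell (14.6%), against 11.6% of all genes called, 7.39% rising and 4.23% falling. In DW males 3 rose (6.25%), against 15% called and 8.86% rising. In DW females 2 rose and 1 fell (6.25%), against 12.1% called, 5.95% rising and 6.16% falling. The median change of the 48 genes was 0.08, 0.02, 0.09 and 0.06 in SW males, SW females, DW males and DW females, and that of all genes 0.01, 0.01, 0.02 and 0.00. Whether these shares differ was not tested. The 4 p21 males and the 4 p21 females each serve 2 of these comparisons. Age and animal number cannot be told apart, since the p21 animals' numbers form a run of their own.

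**Figure D2:**
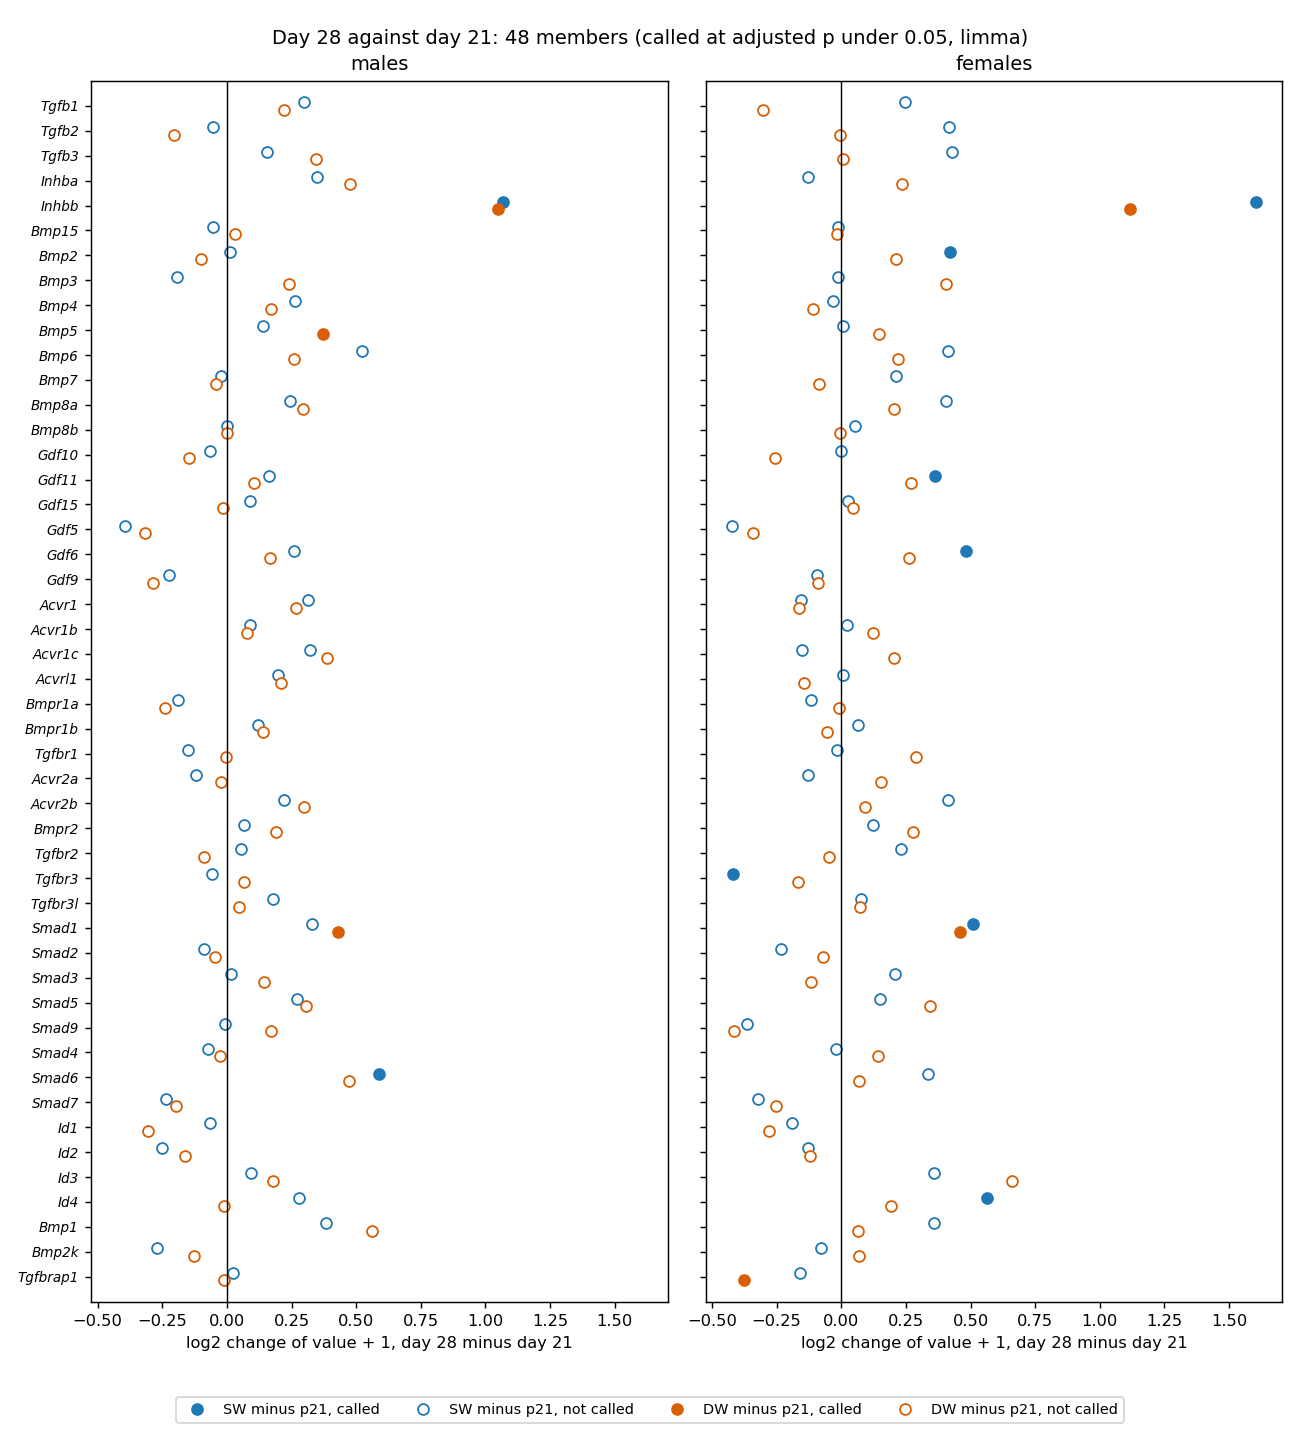
Change of each family gene from p21 to p28 on the log2(value + 1) scale, males left and females right, with SW in blue and DW in orange and filled points for called genes. Inhbb lies farthest right in all 4 comparisons, at 1.05 to 1.61, and Smad1 is filled in 3 of them.

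On the log2(value + 1) scale the largest change in the family was that of Inhbb (chromosome 1), which encodes the beta-B subunit of activin B and inhibin B. In p21 males it was at 5.83, 7.53, 6.42 and 8.48, in SW males at 14.3, 11.6, 12.9 and 28.8, and in DW males at 20.0, 13.0, 13.5 and 16.7. In p21 females it was at 6.59, 13.1, 8.47 and 19.4, in SW females at 32.1, 35.1, 34.7 and 40.5, and in DW females at 28.8, 26.5, 21.9 and 23.4. Every p28 animal was above every p21 animal of its sex. SW females were the highest group and p21 males the lowest, and the DW males (13.0 to 20.0) lay within the range of the SW males (11.6 to 28.8), where SW male 124 was highest. The 250 bases before the RefSeq start of this gene (build GRCm38.p6, chr1:119422249-119422498, minus strand) are shown because Inhbb rose in all 4 age comparisons, and they hold no copy of the Smad motif GGCGCC:
Inhbb: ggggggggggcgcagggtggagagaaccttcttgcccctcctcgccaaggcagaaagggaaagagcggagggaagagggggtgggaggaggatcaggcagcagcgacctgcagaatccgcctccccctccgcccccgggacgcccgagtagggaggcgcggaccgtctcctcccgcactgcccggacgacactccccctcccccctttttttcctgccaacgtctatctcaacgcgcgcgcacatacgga

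Inhbb rose by 1.07 ± 0.25 (SE) in SW males (adjusted p = 0.00903), 1.05 ± 0.25 in DW males (adjusted p = 0.00866), 1.61 ± 0.25 in SW females (adjusted p = 0.000178) and 1.12 ± 0.25 in DW females (adjusted p = 0.00604). On the linear scale the p28 means were 2.39, 2.23, 3.00 and 2.12 times the p21 means. All 4 calls held when any single animal was left out, with edgeR and DESeq2 on the recovered reads, and on GC-corrected values (0.92, 0.94, 1.46 and 1.23), although this transcript is GC-rich at 60.9%. With the mammary, muscle and lymph node marker levels as covariates the change was 1.07 (adjusted p = 0.0698), 1.14 (0.0539), 1.26 (0.0653) and 0.95 (0.0287), so that the DW female call alone held. When only the compared groups were fitted, the DW female call was lost (adjusted p = 0.0647). SW male 124, with the highest male Inhbb, had a mammary marker level of 0.24, and the SW male with the highest such level (2.38) had Inhbb at 14.3. Among DW males, animal 79 had the highest Inhbb and animal 86 the highest mammary level. In the other groups the same animal was highest in both: p21 male 54, p21 female 56, SW female 81 and DW female 76. The part of mammary tissue in Inhbb was not tested further.

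At p28 after SW, Inhbb was higher in females than in males by 1.12 (95% interval 0.59 to 1.65, adjusted p = 0.00817), and the animals did not overlap. This was the 1 family gene called between the sexes in SW animals, where 3.54% of all genes were called and 3.36% were higher in females. The call was lost without SW male 84 (adjusted p = 0.0502), without animals 53 and 84 (0.98, adjusted p = 0.0539) and with the marker levels as covariates (0.45, adjusted p = 0.843). Mammary markers differed between the same groups, with 7 of 7 higher in females. Their level was at most 2.38 in SW males and at least 4.68 in SW females, so the covariate fit can hardly separate it from sex. Over all genes that fit called 10 here, against 567 in the main fit. The part of mammary tissue in the result was not tested further. At p21 and after DW the female minus male difference was 0.58 (0.06 to 1.11, adjusted p = 0.535) and 0.65 (0.12 to 1.18, adjusted p = 0.168). The p21 to p28 SW change differed between the sexes by 0.54 (-0.21 to 1.28, adjusted p = 0.827). The sexes are therefore not shown to differ in how much Inhbb changed with age.

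The other activin subunit, Inhba, encoding beta-A, lay between 0.0154 and 2.67 over the 24 animals and was not called. It was at 1.22, 0.852, 0.0154 and 1.01 in p21 males and 1.66, 2.07, 0.964 and 2.64 in p21 females. The lowest of these values is p21 male 53, with 1 read. The female minus male difference at p21 was 0.70 (0.27 to 1.12, adjusted p = 0.256), with overlapping animals.

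**Figure D3:**
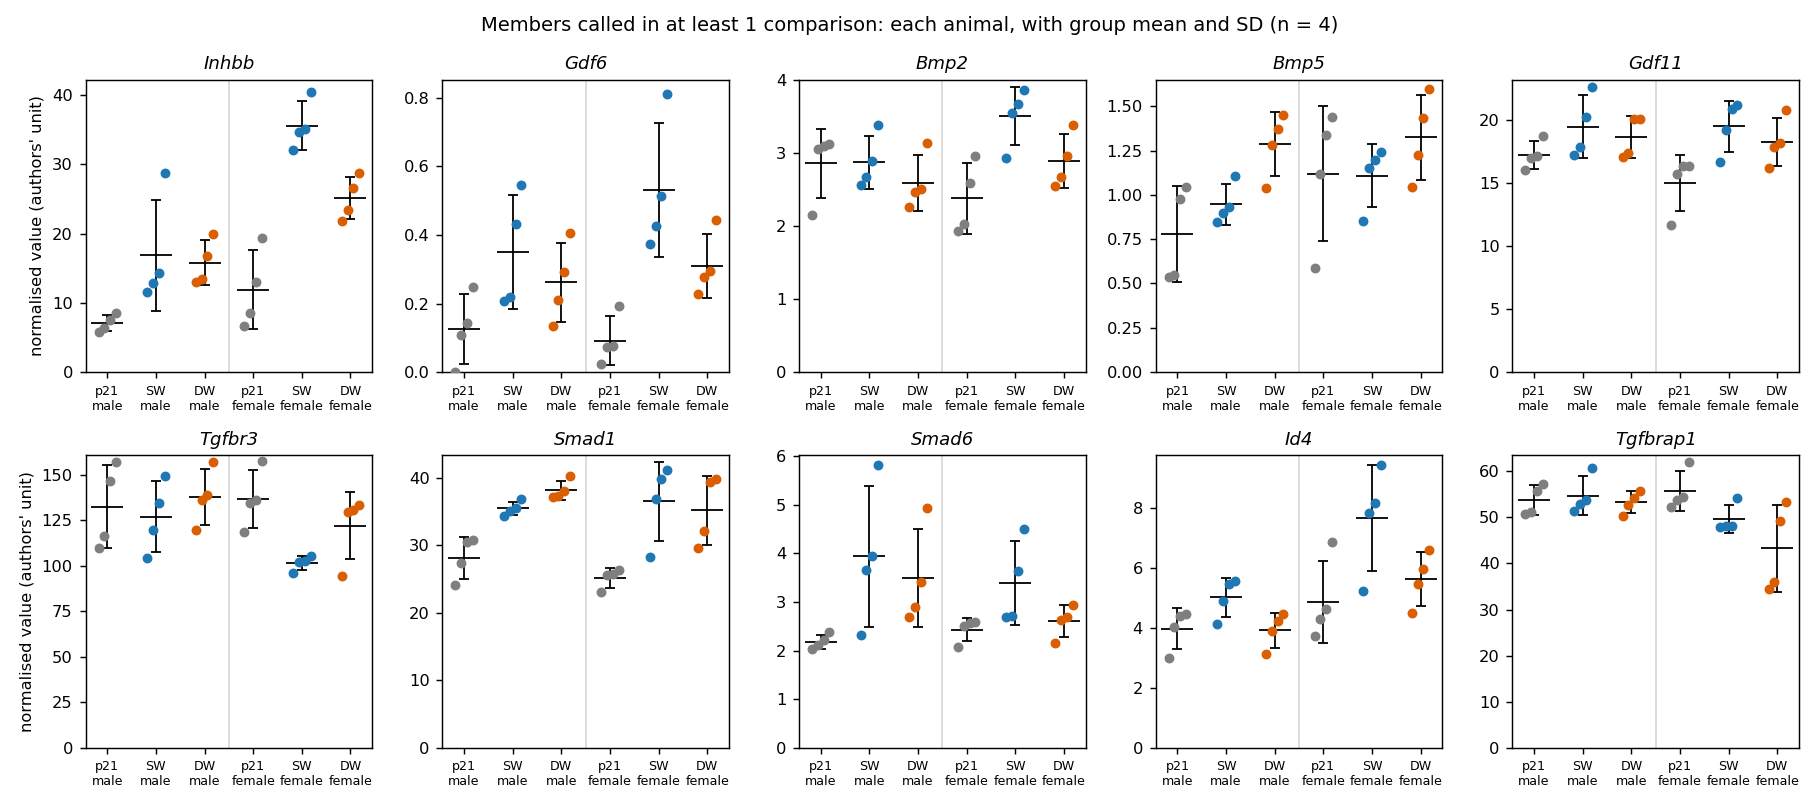
Normalised value of each animal (points), with group mean and SD (n = 4), for the 10 family genes called in at least 1 comparison, in grey for p21, blue for SW and orange for DW, males left of the line. In Inhbb all p28 points lie above the p21 points of the same sex, with SW females highest at 32.1 to 40.5.

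Among the BMP and GDF ligands, 3 of 15 rose in SW females (7.39% of all genes), 1 of 15 in DW males (8.86% of all genes) and none in the other 2 age comparisons. Bmp2, a ligand known for driving bone and early adipocyte commitment, was at 2.96, 2.03, 2.59 and 1.93 in p21 females and at 3.86, 3.56, 3.67 and 2.93 in SW females. It rose by 0.42 ± 0.12 (adjusted p = 0.0262), with 1 SW animal just below the highest p21 animal. The call was lost with edgeR (adjusted p = 0.0713), with the marker covariates (0.124) and without any 1 of 5 animals of these groups (p21 females 36 and 56, SW females 73, 74 and 75; adjusted p up to 0.0993). In SW males Bmp2 was at 2.56 to 3.38, against 2.15 to 3.13 in p21 males.

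Gdf6, also called BMP13 and known for joint and skeletal patterning, was very low: 0.024, 0.0752, 0.193 and 0.0733 in p21 females, and 0.813, 0.374, 0.513 and 0.427 in SW females. The groups did not overlap, and Gdf6 rose by 0.48 ± 0.10 (adjusted p = 0.00165). Since the values are far below 1, the size of this change depends on the constant added: it was 1.75 with a pseudocount of 0.1 and 2.52 with edgeR, against 1.69 and 1.56 for Inhbb in the same comparison. The call was lost only with the marker covariates (adjusted p = 0.0595). Elsewhere Gdf6 lay between 0.227 and 0.444 (DW females), 0 and 0.249 (p21 males), 0.206 and 0.546 (SW males), and 0.135 and 0.406 (DW males).

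Gdf11, a close relative of myostatin, was at 11.7, 15.7, 16.3 and 16.4 in p21 females and at 21.2, 20.9, 19.2 and 16.7 in SW females. Its rise of 0.36 ± 0.12 was at the edge of the threshold (adjusted p = 0.0495). It was lost in 5 of 10 other settings and on leaving out any 1 of 18 of the 24 animals (all but p21 male 53, SW males 84 and 85, SW female 81 and DW females 82 and 83). Bmp5, at 0.977, 1.05, 0.539 and 0.548 in p21 males and 1.45, 1.37, 1.04 and 1.28 in DW males, rose by 0.37 ± 0.12 (adjusted p = 0.0457). This call held in 3 of 10 other settings and in 11 of 24 fits without 1 animal, and the groups overlapped. It was lost without p21 male 53 or 54, any SW male, DW male 79, 80 or 87, p21 female 36, or SW female 73, 74 or 81.

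The remaining 11 ligands were called in no comparison of the main fit. Gdf5 had a mean of 1.69 in p21 females and 1.00 in SW females, a difference of -0.42 with overlapping animals. It was called lower there on GC-corrected values (adjusted p = 0.0357), without animals 53 and 84 (0.0454) and without DW females 82 and 83 (0.0476). In males the Gdf5 means were 1.56 at p21 and 0.947 after SW, and it was called lower on GC-corrected values (adjusted p = 0.0390). Bmp6, known as an iron-responsive BMP of endothelial cells, was at 9.08, 9.51, 9.61 and 10.3 in p21 males and at 17.7, 15.4, 13.1 and 11.5 in SW males. These groups did not overlap, and the difference was 0.52 (0.16 to 0.88, adjusted p = 0.0522); edgeR gave an adjusted p of 0.048. Bmp6 overlaps Txndc5 on the opposite strand, and the strand setting of the counting is not given in the sources used here. Bmp4, known for committing precursor cells to the fat lineage, stayed between 1.41 and 3.92 over all 24 animals.

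Bmp8b, a BMP known from brown fat, was at the limit of detection in males. It had no reads in 9 of 12 males and 1 to 2 reads in the others, and 2 to 28 reads in each of the 12 females. On the log2(value + 1) scale the female minus male difference was 0.17 (0.06 to 0.27) after SW and 0.11 (0.01 to 0.22) after DW, with adjusted p of 0.0843 and 0.228. On the recovered reads edgeR called it in both, with adjusted p of 0.00912 and 0.0241. Bmp8b overlaps Ppie on the opposite strand and has a near-identical neighbour, Bmp8a, so its reads are uncertain.

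None of the 3 TGF-beta ligands was called. Tgfb1, the main TGF-beta of most tissues, was at 31.9, 39.8, 41.1 and 40.0 in SW females and at 44.5, 39.1, 16.3 and 15.1 in DW females. The 2 low values are those of DW females 82 and 83, the lowest of all 24 animals, and the other DW females were level with SW. The DW minus SW difference was -0.55 (-1.06 to -0.04, adjusted p = 0.243), and without DW female 76 Tgfb1 was called (-0.80, adjusted p = 0.0299). Tgfb1 has a GC-rich transcript (62.5%). On GC-corrected values the 4 DW females were at 37.9, 34.7, 20.3 and 22.4, so that animals 82 and 83 remained the lowest of all 24.

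Tgfb3 showed the same division, at 23.7 and 24.9 in DW females 76 and 77 against 13.5 and 13.4 in 82 and 83, and had 23.0, 25.4, 23.2 and 26.9 in SW females. SW males were at 18.1, 11.9, 16.7 and 16.8, below all SW females. The female minus male difference after SW was 0.62 (0.24 to 0.99, adjusted p = 0.0676), and it was called without DW females 82 and 83, which lie outside this comparison (adjusted p = 0.00672). Tgfb3 overlaps Ttll5 on the opposite strand. Tgfb2 was at 6.95 to 11.7 in SW females and 4.67 to 8.79 in DW females, a difference of -0.42 (-0.80 to -0.04, adjusted p = 0.235).

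Of the 11 receptors, none was called in any comparison. The type I receptors Tgfbr1 and Acvr1c divided the DW females in the opposite direction to Tgfb1. Tgfbr1, the main TGF-beta type I receptor, was at 30.1 and 29.9 in DW females 76 and 77 and at 49.0 and 59 in 82 and 83, while the 20 other animals were at 28.3 to 40.6. Acvr1c, also called ALK7, was at 86.6 and 87.3 against 142 and 169. Their transcripts are GC-poor (43.8% and 45.3%), and on GC-corrected values animals 82 and 83 were still the highest for Tgfbr1, at 43.0 and 48.5. For Acvr1c they were then at 128.0 and 144, with SW male 84 between them at 135. Marker levels also divided DW females 76 and 77 from 82 and 83. The adipocyte level was 9.72 and 9.69 against 9.14 and 8.95, and the macrophage level 6.09 and 6.25 against 5.42 and 5.34. The proliferation level was 4.30 and 4.61 against 5.36 and 5.16, while the lymph node and muscle levels did not divide these animals. The part of library or cell composition in these values was not tested further.

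Tgfbr2, the most abundant of the receptors, was at 230, 232, 192 and 210 in SW females and at 179, 214, 161 and 161 in DW females, a difference of -0.28 (-0.49 to -0.07, adjusted p = 0.177) with overlapping animals. It was called without DW female 77 (-0.37, adjusted p = 0.0397).

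Tgfbr3, the co-receptor that presents TGF-beta2 and binds inhibins, fell in SW females. It was at 158, 135, 119 and 136 in p21 females and at 103, 105, 96.2 and 102 in SW females, with no overlap. The change was -0.42 ± 0.13 (adjusted p = 0.0439). It was lost with the marker covariates (-0.26, adjusted p = 0.425) and on leaving out 1 of 11 animals in turn (adjusted p up to 0.144), among them p21 females 30, 36 and 56 and all 4 SW females. In DW females, with 94.6, 131, 129 and 133, the change was -0.17 (-0.45 to 0.11), and in SW males -0.06 (-0.34 to 0.22).

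Of the 8 Smads, Smad1 was the one called more than once. Smad1 (chromosome 8) carries BMP signals from the receptor to the nucleus. It was at 24.0, 27.3, 30.4 and 30.8 in p21 males, 36.8, 35.5, 35.1 and 34.3 in SW males, and 40.2, 37.3, 38.0 and 37.1 in DW males. It was at 25.5, 26.3, 25.7 and 23.0 in p21 females, 28.2, 39.8, 41.1 and 36.8 in SW females, and 39.3, 39.7, 32.0 and 29.6 in DW females. All p28 animals were above all p21 animals of their sex. Smad1 is printed beside Smad6 below because these are the activating and the inhibiting Smad that were called; the 250 bases before each RefSeq start are on the minus strand of GRCm38.p6, at chr8:79399429-79399678 for Smad1 and chr9:64022060-64022309 for Smad6, and neither holds GGCGCC:
Smad1: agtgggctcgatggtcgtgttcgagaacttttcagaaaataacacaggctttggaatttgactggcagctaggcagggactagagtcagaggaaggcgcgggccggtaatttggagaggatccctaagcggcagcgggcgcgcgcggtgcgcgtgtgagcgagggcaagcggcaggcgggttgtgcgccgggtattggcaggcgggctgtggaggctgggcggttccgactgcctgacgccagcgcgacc
Smad6: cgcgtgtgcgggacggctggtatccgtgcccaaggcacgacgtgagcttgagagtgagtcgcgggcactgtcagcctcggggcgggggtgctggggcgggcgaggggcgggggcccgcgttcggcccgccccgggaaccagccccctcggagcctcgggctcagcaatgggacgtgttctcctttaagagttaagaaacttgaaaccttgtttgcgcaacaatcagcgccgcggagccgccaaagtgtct

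Smad1 rose by 0.51 ± 0.11 in SW females (adjusted p = 0.00384), 0.43 ± 0.11 in DW males (adjusted p = 0.0137) and 0.46 ± 0.11 in DW females (adjusted p = 0.00956), or 1.45, 1.35 and 1.40 times the p21 mean. In SW males the difference was 0.33 (0.10 to 0.56, adjusted p = 0.0586). The 3 calls held without any single animal, with edgeR and DESeq2, and on GC-corrected values. With the marker covariates the changes were 0.40 (adjusted p = 0.239), 0.47 (0.0754) and 0.40 (0.0407). With only the compared groups the DW female call was lost (adjusted p = 0.0898). Animals 82 and 83 were the 2 lowest DW females, and without them the DW female change was 0.63 (adjusted p = 0.00254).

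The inhibitory Smad6 (chromosome 9), which blocks BMP receptors and Smad1, was at 2.03, 2.21, 2.37 and 2.12 in p21 males and at 2.31, 3.67, 3.95 and 5.83 in SW males. It rose by 0.59 ± 0.18 (adjusted p = 0.0327), with 1 SW animal inside the p21 range. Its transcript is the most GC-rich of the family (64.3%). On GC-corrected values the change was 0.42 and no longer called (adjusted p = 0.160). The call was also lost without any 1 of 6 of these 8 males, p21 males 37, 38 and 54 and SW males 84, 85 and 124 (adjusted p up to 0.122), with only the compared groups and with the marker covariates. In DW males, at 2.90, 4.93, 2.70 and 3.42, the difference was 0.47 (0.11 to 0.84, adjusted p = 0.0744).

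The other Smads were not called in the main fit, but 3 were in other settings. Without animals 53 and 84, Smad9 was called lower than at p21 in SW females (-0.37, adjusted p = 0.0163) and DW females (-0.41, adjusted p = 0.00859). On GC-corrected values Smad7 was called lower in SW females (-0.45, adjusted p = 0.0204). Smad5 was then called higher in SW males (0.32, adjusted p = 0.0316) and DW males (0.31, adjusted p = 0.0264). Smad3, which carries TGF-beta and activin signals, was at 58, 51.4, 50.7 and 54.0 in SW females and at 43.2, 45.3, 39.5 and 42.2 in DW females, with no overlap. The difference was -0.32 (-0.57 to -0.08, adjusted p = 0.182). In males the DW animals were at 45.5, 43.8, 51.1 and 54.5 and the SW animals at 41.3, 40.1, 49.2 and 47.5. The weaning difference of Smad3 differed between the sexes by -0.45 (-0.80 to -0.10, adjusted p = 0.802). Smad4 lay between 32.0 and 51.3 in all animals, and its group means differed by at most 1.13 times.

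Among the Id genes, known as direct targets of BMP-activated Smads, Id4 (chromosome 13) rose in SW females. It was at 3.71, 6.84, 4.29 and 4.62 in p21 females and at 9.41, 7.83, 5.21 and 8.17 in SW females, a change of 0.56 ± 0.17 (adjusted p = 0.0332) with overlapping animals. The call was lost with edgeR and TMM (adjusted p = 0.0546) but held with edgeR and DESeq2-style factors (0.0431). It was also lost with the marker covariates (0.175), with only the compared groups (0.0749) and without any 1 of 6 of these 8 females (all but p21 female 36 and SW female 75). DW females were at 4.49, 5.45, 5.95 and 6.60. Id1, Id2 and Id3 were called in no comparison of the main fit. Id3 had a mean of 5.09 in p21 females and 8.83 in DW females, with overlapping animals. It was called higher there with DESeq2 (0.82, adjusted p = 0.0262) and on GC-corrected values (0.76, adjusted p = 0.0227). Id1 was at 6.97 to 19.5 over all animals. The highest group mean was 1.41 times the lowest for Id1 and 1.21 times for Id2. GENCODE M21 places the start of Id4 further downstream on the same strand than RefSeq does, so this window depends on the annotation. The 250 bases before the RefSeq start of Id4 (GRCm38.p6, chr13:48260866-48261115, plus strand) are shown because they hold 1 copy of GGCGCC, in capitals, whose first base lies 148 bases before the start:
Id4: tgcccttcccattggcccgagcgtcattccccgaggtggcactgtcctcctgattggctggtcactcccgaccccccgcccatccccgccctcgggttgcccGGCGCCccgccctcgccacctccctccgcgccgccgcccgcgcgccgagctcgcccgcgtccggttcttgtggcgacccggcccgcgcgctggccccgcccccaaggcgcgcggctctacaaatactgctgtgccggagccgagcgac

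The motif GGCGCC is known as a Smad-binding sequence of BMP target genes, and GTCTAGAC as the palindromic Smad box. Each reads the same on both strands, and they share no overlap. RefSeq windows of 250 bases before the start (GRCm38.p6) were given for 34 of the 48 family genes. Of these 34, 9 held GGCGCC (26.5%), against 10.8% of 27025 genes with such windows, and none held GTCTAGAC, against 0.200%. The genes with GGCGCC were Bmp2k, Bmpr1a, Bmpr2, Id2, Id4, Smad5, Smad9, Tgfbr1 and Tgfbrap1. The windows of the family were also richer in G and C, with a median of 66% against 52.4%. A match describes letters in this window and not a bound site.

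Tgfbrap1, which takes part in endosomal traffic and binds TGF-beta receptors, fell in DW females. It was at 53.8, 62, 52.3 and 54.5 in p21 females and at 49.1, 53.4, 36.1 and 34.5 in DW females, a change of -0.38 ± 0.11 (adjusted p = 0.0273). The low values are those of animals 82 and 83, and without them the change was -0.12 (adjusted p = 0.492). The call was also lost without either of these 2 animals, without p21 female 36 or 56, and with only the compared groups. On GC-corrected values it held (-0.33, adjusted p = 0.0245). Bmp1 and Bmp2k were not called.

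Between delayed and standard weaning at p28 no family gene was called with limma in males (0 of 48, 0.256% of all genes) or females (0 of 48, 1.27%). At an unadjusted p below 0.05 there were 0 in males and 7 in females. edgeR and DESeq2 also called 0 in both sexes; unadjusted, edgeR had 1 and 7 and DESeq2 1 and 8. In males the DW minus SW differences ran from -0.29 (Id4) to 0.43 (Bmp3), and the 95% intervals of all 48 genes lay within 1 log2 unit either way. In females they ran from -0.55 (Tgfb1) to 0.42 (Bmp3), and the intervals of 46 genes lay within 1 unit, all but Tgfb1 and Inhbb. These bounds say little of the 7 genes below 1 in every animal, whose log2(value + 1) can hardly move by 1 unit. Bmp15, for example, had a mean of 0.00754 in SW males and 0.0681 in DW males.

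The animals of the DW and SW groups did not overlap for 3 family genes in males (8.73% of all genes), namely Smad1, Smad9 and Bmp15, and for 4 in females (5.79%), namely Smad3, Inhbb, Inhba and Bmp3. Bmp3, a BMP known to oppose BMP signals in bone, was at 13.1, 15.3, 12.7 and 14.8 in SW females and at 18.7, 22.0, 16.9 and 18.5 in DW females. Its difference was 0.42 (-0.11 to 0.94, adjusted p = 0.357) in females and 0.43 (-0.09 to 0.96, adjusted p = 0.823) in males. For Inhbb the DW minus SW difference was -0.49 (-1.01 to 0.04, adjusted p = 0.293) in females and -0.02 (-0.55 to 0.51, adjusted p = 0.999) in males. None of the 48 genes differed between the sexes in its weaning difference (0.0187% of all genes called; 2 family genes at an unadjusted p below 0.05 with limma, 1 with edgeR and 2 with DESeq2, none called).

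**Figure D4:**
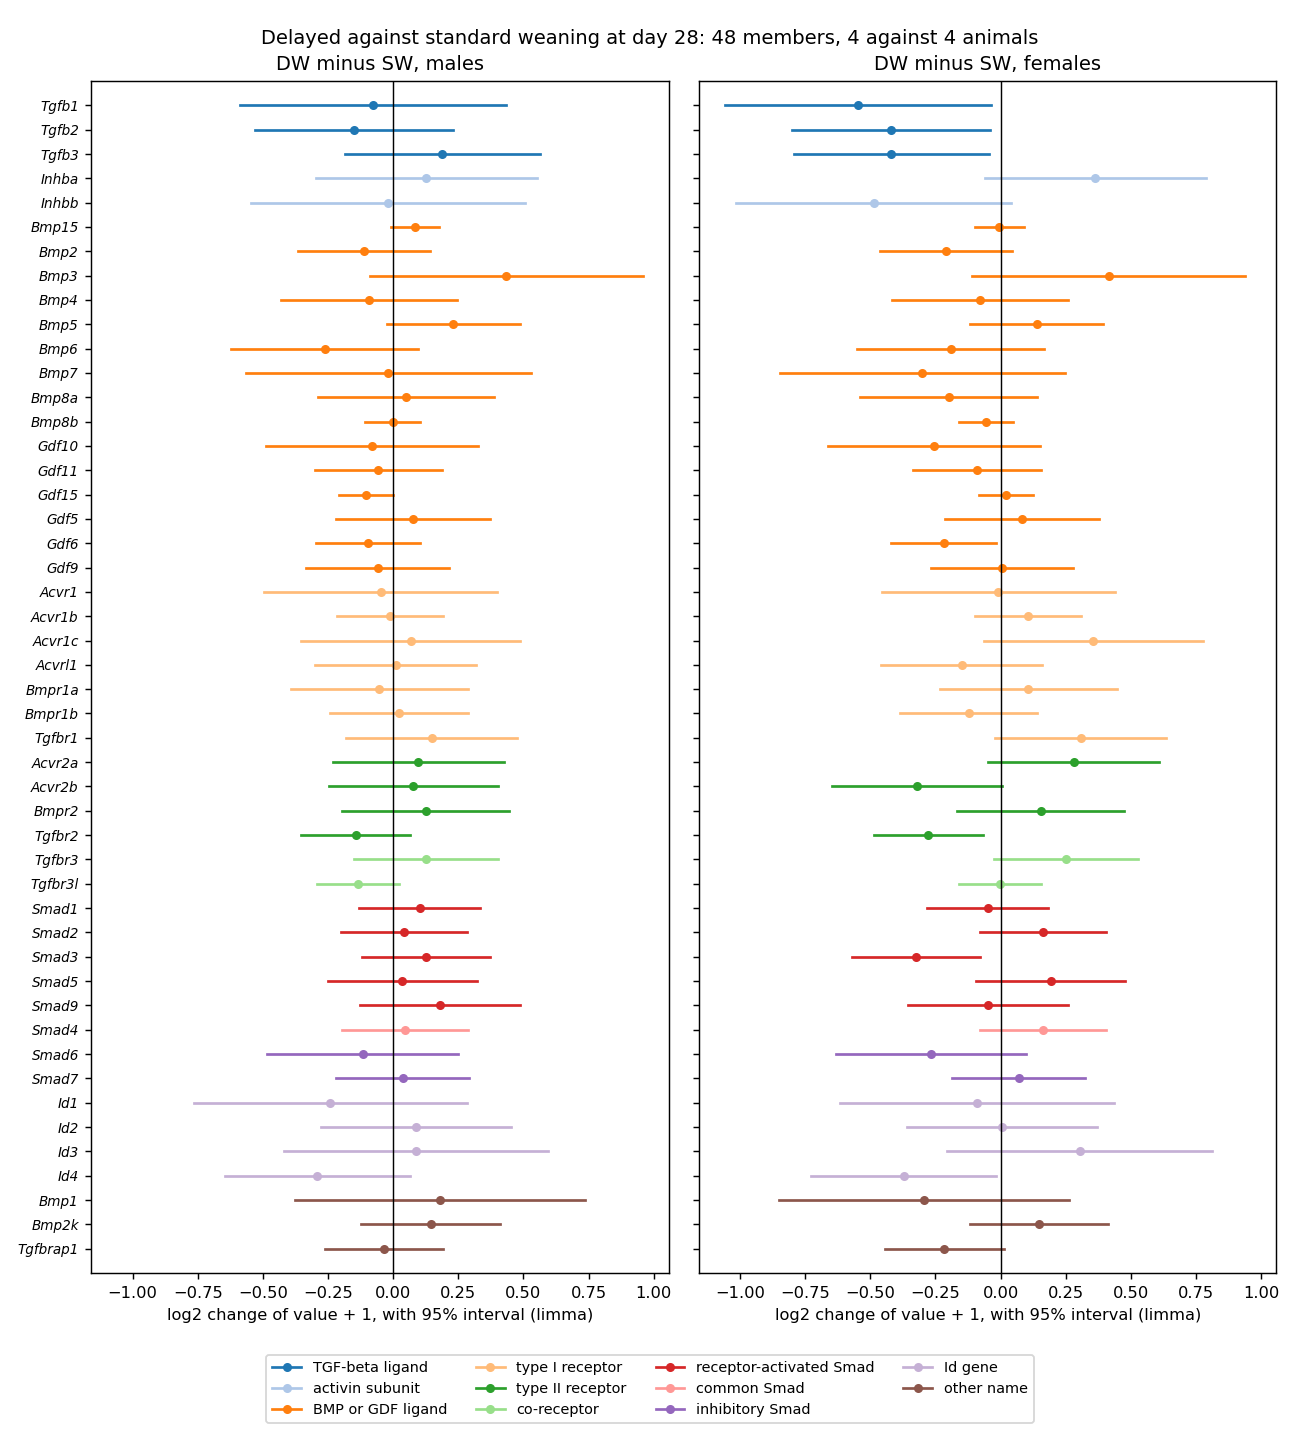
DW minus SW difference at p28 of each family gene with its 95% interval from limma, on the log2(value + 1) scale, males left and females right, coloured by role. No gene was called, and the estimates lie between -0.29 and 0.43 in males and between -0.55 and 0.42 in females. This scale understates the change of genes with values below 1.

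Between the sexes no family gene was called with limma at p21 (0.356% of all genes) or after DW (2.46%), where 4 and 6 had an unadjusted p below 0.05. edgeR called 0 at p21 and 1 after DW, as did DESeq2, and that 1 was Bmp8b; unadjusted, each had 3 and 5. For the sex difference in the p21 to p28 SW change, none was called (1.03% of all genes), with 1 family gene at an unadjusted p below 0.05 with limma, 0 with edgeR and 2 with DESeq2, which also called none. Males and females did not overlap for 1 family gene at p21 (3.97% of all genes), 4 after SW (7.77%) and 4 after DW (10.9%). Between p21 and p28 the groups did not overlap for 3 family genes in SW males (16.2% of all genes), 11 in SW females (21.5%), 6 in DW males (23.1%) and 5 in DW females (15.1%).

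Other genes of the pathway were taken from a list of 60 antagonists, activators, co-receptors, regulators and targets, of which 56 were tested. With age 4 rose and 3 fell in SW males (11.9% of all genes called), 2 rose and 2 fell in SW females (11.6%), 6 rose and 2 fell in DW males (15%), and 3 rose and 1 fell in DW females (12.1%). Their median change was 0.09, 0.12, 0.12 and 0.02 in that order. With limma none was called between DW and SW in males or females, where 4 and 14 had an unadjusted p below 0.05; edgeR called none in either sex, and DESeq2 1 in males and none in females. Without single animals up to 6 were called in females. At p21 limma called none between the sexes (6 at an unadjusted p below 0.05). With the marker covariates 2 were called in SW males, 1 in SW females, 1 in DW males and 6 in DW females, while over all 16005 genes 484, 448, 556 and 2202 were called.

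Pmepa1, a TGF-beta target that limits Smad signalling, was the most constant of these. It was at 23.9, 38.3, 34.1 and 35.9 in p21 males, at 110, 95.6, 77.7 and 137 in SW males and at 62.6, 92.3, 56.6 and 76.8 in DW males. It was at 20.4, 27.1, 25.7 and 28.9 in p21 females, at 69.6, 105, 71.4 and 81.2 in SW females and at 65, 67.7, 39.4 and 39.0 in DW females. All p28 animals were above the p21 animals of their sex. Pmepa1 rose by 1.63 ± 0.21 in SW males (adjusted p = 5.79e-05), 1.63 ± 0.21 in SW females (1.62e-05), 1.10 ± 0.21 in DW males (0.00188) and 0.98 ± 0.21 in DW females (0.00388), and all 4 calls held in every other setting and without any single animal.

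Bmper, a secreted BMP-binding modulator of endothelial cells, moved the other way. It was at 15.8, 17.0, 17.5 and 12.5 in p21 males and at 9.20, 8.40, 7.74 and 7.32 in SW males, and fell by 0.86 on the log2 scale (adjusted p = 0.000481). In females it was at 24.5, 16.2, 15.8 and 16.5 at p21 and at 13.2, 10.1, 10.5 and 10.2 after SW, and fell by 0.67 on the log2 scale (adjusted p = 0.0025). Neither pair of groups overlapped. The male call held in all settings, and the female call was lost with the marker covariates. In DW mice Bmper lay between 10.0 and 13.6 (males) and 13.0 and 15.9 (females), and was not called.

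Crim1, a membrane protein that binds BMPs, rose in SW males by 0.30 (adjusted p = 0.0473), DW males by 0.44 (adjusted p = 0.00562) and DW females by 0.36 (adjusted p = 0.0209). It was at 36.7 to 47.1 in p21 males, 45.1 to 61.2 in SW males and 53.9 to 60.1 in DW males, and at 39.6 to 47.7 in p21 females and 52.4 to 61.7 in DW females. The SW male call held in 5 of 10 settings and 8 of 24 fits without 1 animal, and the DW female call was lost without animals 82 and 83. Noggin (Nog), a BMP antagonist, fell in SW males by 0.27 (adjusted p = 0.0324) and in DW males by 0.32 (adjusted p = 0.0118) on the log2 scale, at values below 1 throughout, and its SW male call held in 4 of 10 settings and its DW male call in 8. Tdgf1, a Nodal co-receptor, was also below 1 in every group mean and fell in SW males, SW females and DW males, by 0.35, 0.44 and 0.47 on the log2 scale. These calls held in 3, 7 and 9 of 10 settings. Of the listed antagonists, Chrd rose in DW males by 0.64 (adjusted p = 0.0140) and Kcp in SW males by 0.77 (adjusted p = 0.0342). The 2 calls held in 8 and 4 of 10 settings. In DW males Atoh8 rose by 0.83 and Lrrc32 by 0.61, held in 5 and 8 settings. In DW females Itgav rose by 0.48 and Ltbp2 fell by 0.60, held in 8 and 6 settings, and both were lost without animals 82 and 83. Thbs1, which can release active TGF-beta, was at 22.1 to 36.8 in p21 females and 47.2 to 61.4 in SW females, and rose by 0.81 (adjusted p = 0.0109). That call was lost with the marker covariates (0.41, adjusted p = 0.512) and without p21 female 30 (adjusted p = 0.0533).

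Hjv, a BMP co-receptor of muscle and liver, was at 0.0388, 1.30, 0 and 0.0166 in p21 males, at 9.58, 1.64, 19.7 and 6.22 in SW males and at 4.86, 1.03, 19.2 and 14.1 in DW males. It rose by 2.69 in SW males (adjusted p = 0.0269) and 2.64 in DW males (adjusted p = 0.0258). The animals with the highest Hjv, SW male 85 and DW male 86, also had the highest muscle marker levels of their groups (9.09 and 8.98). With the marker covariates the changes were 0.21 (adjusted p = 0.845) and 0.27 (adjusted p = 0.784). The SW call was also lost without p21 male 37, 53 or 54 or SW male 78 or 85 (adjusted p up to 0.0992), and the DW call without p21 male 53 or 54 or DW male 86 or 87 (up to 0.092).

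Ccn2, a matrix protein and TGF-beta target, was the 1 listed gene called between the sexes. After SW it was at 15.3, 14.5, 17.3 and 10.0 in females and 7.71, 2.31, 6.19 and 6.98 in males, with no overlap, and was higher in females by 1.24 (adjusted p = 0.00177). After DW it was at 13.4, 11.1, 11.6 and 12.9 in females and 7.56, 6.02, 5.54 and 5.38 in males, higher by 0.90 (adjusted p = 0.0481). With the marker covariates the differences were 0.53 (adjusted p = 0.812) and 0.38 (adjusted p = 0.688). Over all genes that fit called 10 and 5 in these comparisons, against 567 and 394 in the main fit. The DW call was lost without any 1 of 18 animals, among them all 4 DW males and DW females 82 and 83 (adjusted p up to 0.149). The mammary markers moved with this difference, 7 of 7 being higher in females in both comparisons.

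**Figure D5:**
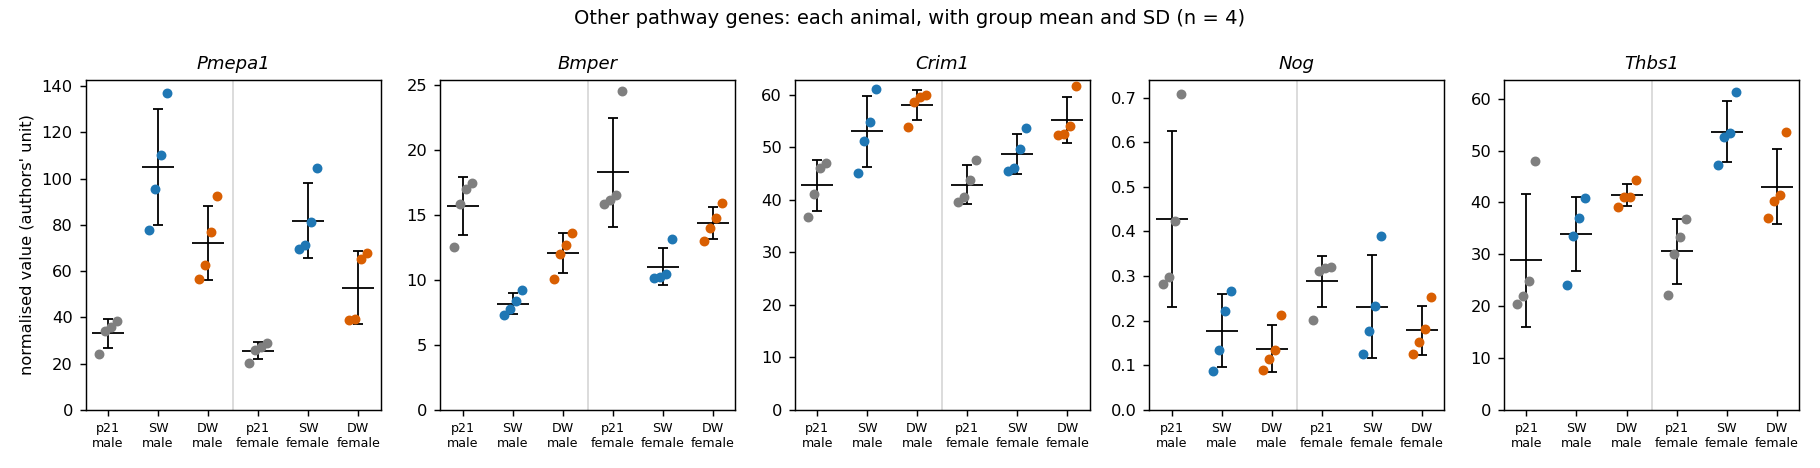
Normalised value of each animal (points), with group mean and SD (n = 4), for Pmepa1, Bmper, Crim1, Nog and Thbs1, in grey for p21, blue for SW and orange for DW, males left of the line. Pmepa1 is at 20.4 to 38.3 in p21 animals and at 39.0 to 137 in p28 animals.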

How the data were processed

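The deposited table holds a normalised signal per gene and library. Per the submitters' processing notes, fastp, HISAT2, featureCounts and DESeq2 1.38.3 were used with build mm10; their roles, other versions, the annotation and the strand setting are not given in the sources used here. Every signal of a library (100%) was a whole multiple of the signal of 1 read within 0.01, so the authors' scaling was 1 factor per library and whole reads could be recovered. Gene starts in the table equal those of GENCODE M21 (GRCm38) for 2.23% of 16095 genes, so no deposited position is printed. Ages follow the descriptions and age labels, which differ from the titles of the p21 libraries. The authors' own comparisons were not used.

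Of 16208 rows, 90 repeated ones were left out. limma 3.58.1 (R 4.3.3; lmFit, eBayes with a trend) was fitted to log2(value + 1) of all 24 libraries, with a mean for each of 6 groups and 18 residual degrees of freedom, over 16005 genes kept by filterByExpr (minimum count 10). Intervals are 95% intervals. The design named this test because the file was reported to hold normalised values. Alternatives were edgeR 4.0.16 with TMM or DESeq2-style factors, DESeq2 1.42.0, no filter, a pseudocount of 0.1, marker levels as covariates, only the compared groups, leaving out animals 53 and 84, the run of animal numbers for weaning (in which SW male 124 has a level of its own and adds nothing), and leaving out each animal. On the recovered reads edgeR called 1801, 1472, 2283 and 1666 genes from p21 in SW males, SW females, DW males and DW females, and 29 and 71 between DW and SW in males and females. After the data were seen, 2 were added: DW females 82 and 83 left out, and values corrected for transcript GC content by a lowess curve (span 0.3) of each library's deviations. The fit was tested on simulated data.

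The family genes, the other pathway genes and the marker lists were chosen with earlier results of these data known. All called family genes are named with every animal's value in the groups compared, and other genes were named after their values were seen. Replicates differed by more than sampling noise (chi-square of at least 77.11 per degree of freedom), and none was merged. In DW females it was 126 (76 and 77) and 123 (82 and 83), but 594 to 790 across these pairs. In DW males it was 78.5 (79 and 80) and 89.6 (86 and 87), against 165 to 250 across. In p21 males it was 203 (37 and 38) and 134 (53 and 54), against 299 to 364. The other groups were not divided in this way. All tests treat the animals of a group as independent, which was not tested. Whether each read stands for a separate molecule is not given, and nothing says more of the replicates than that they are separate animals. Levels per kb use exon lengths of GENCODE M21.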

Additional observations from a re-analysis of the deposited data

Results flagged for a closer look

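For each named gene and each group of 4 animals, the gap between the highest or lowest animal and its nearest neighbour was divided by the range of the group on the log2(value + 1) scale. In 18 of 168 groups it was above Dixon's 95% critical value for 4 samples. Chance flags about 1 in 20 groups, or 8.4 here; over all 48 family genes it was 20 of 288 groups.

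Among the ligands, Bmp8b stood above the other males of each group, all at 0, in p21 male 38 (0.0156), SW male 124 (0.0227) and DW male 87 (0.0127). Tgfb1 was at 5.04 in SW female 73, below the others at 5.35 to 5.40. Tgfb3 was at 3.53 in p21 male 53, against 3.99 to 4.06. Gdf11 was at 3.67 in p21 female 30, against 4.07 to 4.12, and Bmp2 at 1.66 in p21 male 54, against 2.02 to 2.05.

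Among the receptors, Tgfbr1 was low at 4.96 in DW male 80 (others 5.23 to 5.27), and Tgfbr3 at 6.58 in DW female 76 (7.03 to 7.07). Acvr1c was high at 7.10 in SW male 84 (6.58 to 6.64), and Tgfbr2 at 7.68 in DW male 79 (7.53 to 7.55). Smad6 was low at 1.62 in p21 female 36 (1.81 to 1.84), and Tgfbrap1 high at 5.79 in SW female 81 (5.61 to 5.62).

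Of the other pathway genes, Bmper was high at 4.67 in p21 female 30 (4.07 to 4.13) and at 3.83 in SW female 73 (3.48 to 3.52). Nog was low at 0.265 in p21 female 56 (0.392 to 0.400). Hjv was high at 1.20 in p21 male 38 (0 to 0.0549) and at 3.77 in DW female 83 (0.279 to 0.816).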

How the results depend on the processing

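Counts are of the 48 family genes called, beside 2 in SW males, 7 in SW females, 3 in DW males and 3 in DW females against p21, 1 between the sexes after SW and 0 after DW. Smaller shifts from these counts are left out for most settings, so a count not given need not be unchanged. DESeq2 gave 4 in SW males, 5 in DW females, 3 between the sexes after SW and 1 after DW. edgeR, with TMM and with DESeq2-style factors alike, gave 4 in SW females, 2 between the sexes after SW and 1 after DW. The marker covariates gave 0 in SW males, 0 in SW females, 0 in DW males and 0 between the sexes after SW, but 4 in DW females. Over all genes that setting called 484, 448, 556, 10 and 2202 in the same order, against 1901, 1860, 2395, 567 and 1938. Fitting only the compared groups gave 1 in SW males, 0 in DW females and 2 between the sexes after SW, and a pseudocount of 0.1 gave 2 there. Without animals 53 and 84 there were 1 in SW males, 5 in DW females and 0 between the sexes after SW. Of the alternatives chosen after seeing the data, GC correction gave 3 in SW males, 9 in SW females, 4 in DW males, 6 in DW females and 2 between the sexes after SW. Leaving out DW females 82 and 83 gave 4, 10, 4, 2 and 2 in the same order. The cause of these differences was not tested.

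Leaving out single animals gave between 0 and 1 for weaning in females. Against p21 it gave 1 to 3 (SW males), 3 to 9 (SW females), 2 to 3 (DW males) and 2 to 5 (DW females), and between the sexes 0 to 2 after SW and also after DW. The count in SW males was 1 without p21 male 38 or 54 or SW male 84 or 85. In SW females it was 3 without SW female 73 or 74 and 9 without p21 male 53, and in DW females 2 without DW female 82 or p21 female 36 or 56 and 5 without DW female 76. After SW the sexes gave 0 without SW male 84, and after DW 2 without DW female 76 or 77. In males no alternative run for weaning called a family gene, and in females none but leaving out DW female 76 or 77. No called gene reversed its direction, in the comparison that called it, in any alternative run; uncalled genes were not tracked. No paired analysis was possible because the animal numbers are unique to each group. Genes whose values rest on few reads are limited by depth.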
